A study of Apis mellifera with 9 samples.

Results

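The longest merged H3K27me3 regions of the honeybee ovary were examined here. Peaks of 6 lists were merged wherever they overlapped by at least 1 base, and the regions were selected on 2 measured values, a length of at least 20000 bases and the presence of at least 1 base of a peak of every list. Of 53589 merged regions, 308 met both conditions, which is 0.575% of the regions. They spanned 10.8 Mb, equal to 11.6% of the bases in all merged regions and 4.92% of the 220.2 Mb between the start of each scaffold and its farthest peak. Every merged region of at least 20000 bases was called in all 6 lists, so the second condition removed none. As these values chose the regions, their length and sharing are given as a description, with no test. Without the list of queen-less worker 2, 200 regions met the rule.

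Trimethylation of lysine 27 on histone H3 (H3K27me3) is written by Polycomb repressive complex 2, and the Polycomb proteins that read it keep genes repressed. In insects as in other animals it often lies in broad blocks over developmental regulators such as the Hox genes, and is passed on through cell division. The data come from ChIP-seq, in which fragments bound by an antibody against the mark are sequenced, on ovaries of *Apis mellifera*, a species in which the ovaries of workers are normally inactive while a queen lays. The 3 ovary types had 2 biological replicates each, and repeat immunoprecipitations of a replicate had been pooled.

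The queens were about 12 months old and laying eggs. The queen-less workers came from colonies whose queen had been taken out 2 to 4 weeks before, and their ovaries had a score of 3, which is an active ovary. The queen-right workers came from a hive with a laying queen, and their ovaries had a score of 0, which is an inactive ovary. All bees were female and all samples were ovary tissue, so a change of cell types in an ovary and a change of the mark within a cell cannot be told apart. Peak lists hold no expression, so the tissue could not be checked against marker genes. They hold no read counts either, and the depth of each library is unknown.

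The 6 lists differed in how much they covered, and this touches every value below. Peaks covered 28.6% and 24.3% of the span in queens 1 and 2, 26.9% and 35.4% in queen-less workers 1 and 2, and 29.4% and 22.2% in queen-right workers 1 and 2. The library of queen-less worker 2 covered most and the library of queen-right worker 2 least, and the part of library depth in the differences below was not tested. No gene is named, since the gene table used here names none of the scaffolds of the lists.

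Of the 308 regions, 174 were below 30000 bases. Their median length was 27933 bases, with quartiles of 22988 and 37579 bases, and the longest reached 183410 bases. There were 43 regions of at least 50000 bases, which together held 3.28 Mb, and 8 of at least 100000 bases. The 10 longest held 10.7% of the bases. The members just inside the length minimum were NW_003378092.1:1940227-1960226, with 20000 bases, and NW_003377962.1:667840-687872, with 20033 bases. Just outside it lay NW_003378023.1:169530-189492, with 19963 bases, and NW_003378128.1:160266-180200, with 19935 bases, so the minimum cut a continuous range of lengths. Below the minimum, 3254 regions of 5000 up to 20000 bases were also called in all 6 lists, and these mid-length regions, 28.2 Mb in all, are used for comparison.

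Few of the regions were a single very long peak in the lists themselves. A peak of at least 20000 bases was present in 69 regions of queen 1 and 44 of queen 2, in 56 of queen-less worker 1 and 234 of queen-less worker 2, and in 59 of queen-right worker 1 and 17 of queen-right worker 2. Only 10 regions had such a peak in every sample, and 69 had one in no sample. The name very long domain thus fits the union of the lists better than any 1 list, apart from that of queen-less worker 2. They are called very long regions in what follows.

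Most of each very long region lay under peaks in most samples. Pooled over the 308 regions, peaks covered 89.4% and 83.4% of the bases in queens 1 and 2, 86.9% and 98.0% in queen-less workers 1 and 2, and 85.1% and 73.5% in queen-right workers 1 and 2. The covered share was 3.12 and 3.43 times that of the whole span in the queens, 3.24 and 2.77 times in the queen-less workers, and 2.89 and 3.32 times in the queen-right workers. Queen-right worker 1 had the second highest cover of the span but only the fourth highest within the very long regions. The other samples kept the order of their lists, with queen-less worker 2 highest and queen-right worker 2 lowest in both. The part of list cover in these values was not tested.

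By ovary type the covered share averaged 86.4% ± 4.23 for queens, 92.5% ± 7.85 for queen-less and 79.3% ± 8.17 for queen-right workers (SD, n = 2 each). Queen-less workers were 13.2 percentage points above queen-right workers, and both of their samples lay above both queen-right samples. The difference had a p of 0.333 by an exact two-sided permutation of the sample labels. This is the smallest p that 2 samples against 2 allow, and it was 0.667 after adjustment over the 3 comparisons. The regions were merged from these same lists, and queen-less worker 2 set both edges of 110 of them. Without its list 200 regions met the rule, so the difference is not independent of how the regions were chosen. Queens minus queen-right workers came to 7.06 points and queens minus queen-less workers to -6.12 points, each with an exact permutation p of 0.667 and with samples that overlapped. Single libraries moved these values. Without queen-less worker 2 the queen-less minus queen-right difference was 6.16 points and without queen-right worker 2 it was 7.46 points, both with samples that overlapped, while without queen-right worker 1 it was 19.1 points. Queens minus queen-right workers came to 1.32 points without queen-right worker 2, to 3.98 without queen 1 and to 13.2 without queen-right worker 1. Queens minus queen-less workers came to -0.13 points without queen-less worker 2, to -3.13 without queen 2 and to -11.6 without queen-less worker 1.

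Each sample was also scaled by the cover of its own list. The covered share was then 3.28 ± 0.221 times that of the span for queens, 3.00 ± 0.330 times for queen-less and 3.10 ± 0.2996 times for queen-right workers (SD, n = 2 each). Queen-less minus queen-right workers came to -0.101 on this scale, with samples that overlapped and an exact permutation p of 0.667. Cover of a region cannot exceed the whole region, so this scale is bounded most tightly for the list with the widest cover. Queen-less worker 2, with 98.0% of the regions covered, was close to its bound at 2.77 times. The negative sign can therefore not be read as a direction. With equal covered bases per list, queen-less workers were 14.5 percentage points above queen-right workers. For the unscaled share, the SD pooled over the types was 6.98 percentage points, and the gap between the 2 queen-less samples was larger than the difference between queens and queen-less workers.

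**Figure D1:**
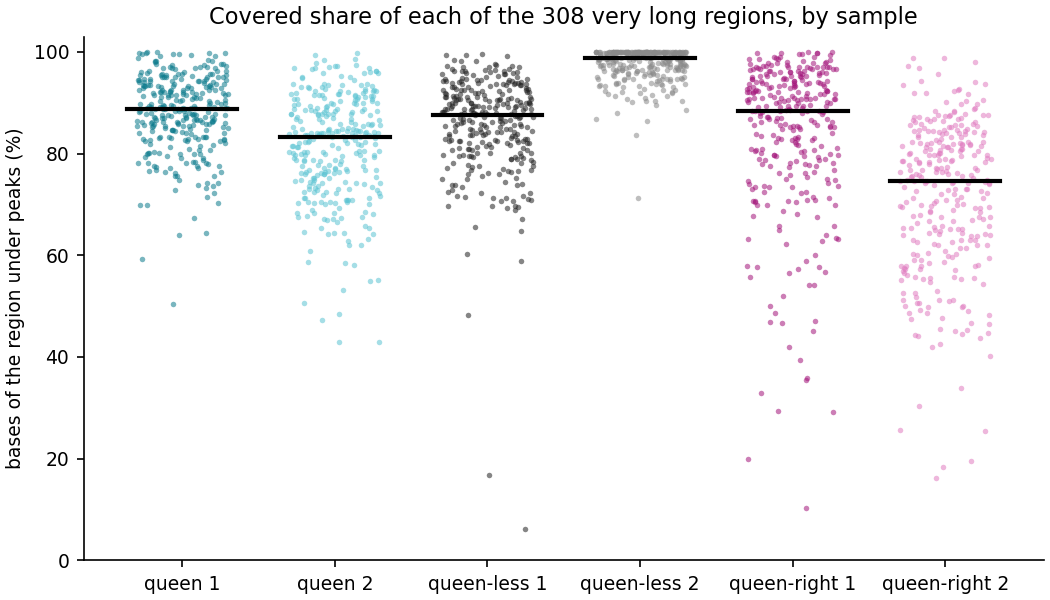
Share of the bases of each of the 308 very long regions that lay under peaks (vertical axis, %), by sample. Median shares were 88.7% and 83.2% in the queens, 87.5% and 98.9% in the queen-less workers and 88.4% and 74.6% in the queen-right workers. Regions under 50% were most frequent in the queen-right workers, with 15 and 30, and the lowest single share was 6.17%, in queen-less worker 1.

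The plot of covered share by region shows that single regions spread widely. The lowest share of any region was 50.4% and 42.9% in queens 1 and 2, 6.17% and 71.3% in queen-less workers 1 and 2, and 10.3% and 16.1% in queen-right workers 1 and 2. Regions covered by less than 50% numbered 0 and 4 in the queens, 3 and 0 in the queen-less workers, and 15 and 30 in the queen-right workers. In all, 272 regions were covered to at least 50% in every sample, 10 to at least 90% in every sample, and 36 fell under 50% in at least 1 sample. Queen-right worker 2 had the lowest share in 212 regions and queen-less worker 2 the highest in 277, so the extremes of a region were mostly set by those 2 libraries.

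Bases called in all 6 samples made up most of the regions. Of the bases, 64.5% lay under peaks of all 6 lists, 13.3% under 5, 8.50% under 4, 5.36% under 3, 4.37% under 2 and 3.97% under 1. In the mid-length regions 46.0% lay under all 6. Across single very long regions the share under all 6 lists ranged widely, between 5.69% and 98.7% with a median of 63.5%, and it reached 50% in 240 regions. Of the bases found in a single list, 69.2% were those of queen-less worker 2.

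The very long regions were broken into several peaks in most samples. They held 1549 and 2144 peaks in queens 1 and 2, 1697 and 523 in queen-less workers 1 and 2, and 1731 and 2906 in queen-right workers 1 and 2. The number of peaks was thus lowest where the cover was highest. The median region held 5 and 7 peaks in the queens, 5 and 1 in the queen-less workers, and 5 and 9 in the queen-right workers. A region was 1 unbroken peak in 15 and 4 cases in the queens, 5 and 173 in the queen-less workers, and 17 and 3 in the queen-right workers.

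**Figure D2:**
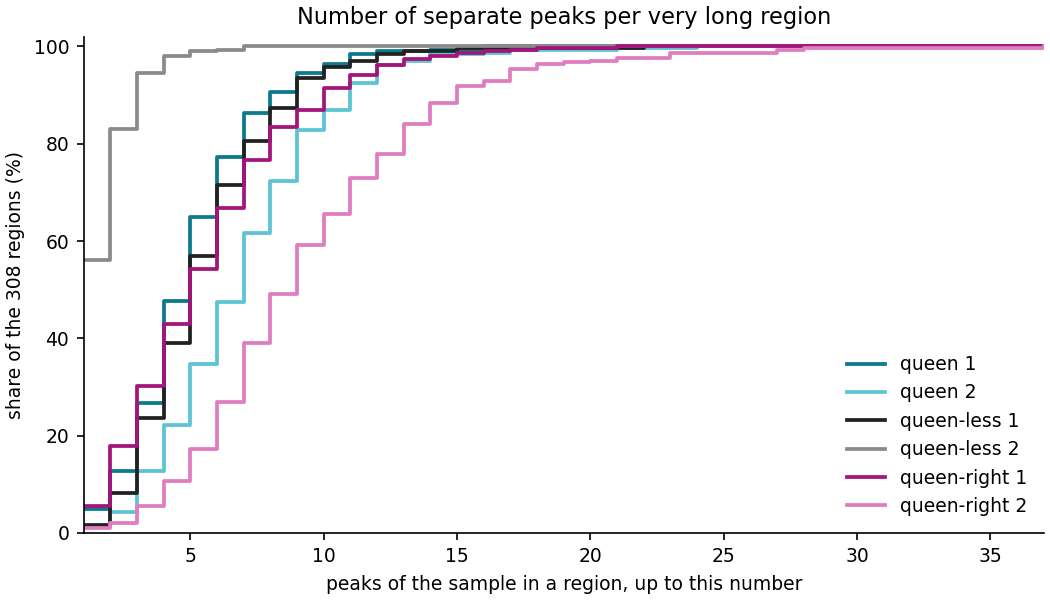
Cumulative share of the 308 very long regions (vertical axis, %) with up to a given number of separate peaks (horizontal axis), 1 line per sample. The line of queen-less worker 2 rises at once, with 173 regions of 1 peak, and that of queen-right worker 2 rises last, with 126 regions of 10 or more peaks.

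Per 10 kb of region the number of peaks averaged 1.70 ± 0.388 for queens, 1.02 ± 0.766 for queen-less and 2.14 ± 0.767 for queen-right workers (SD, n = 2 each). Queen-less workers had 1.12 fewer peaks per 10 kb than queen-right workers (a difference of -1.12), with samples that did not overlap. The exact two-sided permutation p was 0.333, the smallest possible. As for cover, the regions were merged from these same lists, and many were drawn by queen-less worker 2. Queens differed from queen-right workers by -0.436 and from queen-less workers by 0.680 peaks per 10 kb, with an exact permutation p of 0.667 each. Without queen-less worker 2 the queen-less minus queen-right difference was -0.481, and without queen-right worker 2 it was -0.578, both with samples that overlapped. The queen minus queen-right difference was 0.103 without queen-right worker 2, -0.172 without queen 1 and -1.002 without queen-right worker 1. The queen minus queen-less difference was 0.038 without queen-less worker 2, 0.411 without queen 2 and 1.23 without queen-less worker 1. The pooled SD was 0.665 peaks per 10 kb, and fragmentation separated the 2 samples of each worker type by more than that.

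The breaks were short. The median gap between neighbouring peaks of a region was 716 and 759 bases in queens 1 and 2, 729 and 707 in queen-less workers 1 and 2, and 748 and 791.5 in queen-right workers 1 and 2. Over whole lists the median gap was between 1265 and 1498 bases. The shortest gap was 589 bases in every list, 1 base more than 4 times the extension of 147 bases written in the peak names, so shorter breaks do not occur in these lists. The longest gap was 3699 and 3668 bases in the queens, 14605 and 3233 in the queen-less workers, and 14792 and 10072 in the queen-right workers.

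Gaps of a sample often overlapped a gap of some other sample. Of the gaps inside the regions, 96.9% in queen 1 and 91.2% in queen 2 overlapped a gap of at least 1 other sample. The share was 88.4% for queen-less worker 1 and 98.1% for queen-less worker 2, against 92.3% for queen-right worker 1 and 76.5% for queen-right worker 2. Gaps seen in 1 sample alone numbered 38 and 161 in the queens, 161 and 4 in the queen-less workers, and 109 and 610 in the queen-right workers. The last number was from queen-right worker 2, which also had the most gaps, 2598 in all. Any overlap with a gap of any other list was counted, and no expected share was computed. The share depends on the number of gaps in the other lists. Of the gaps of a list, between 6.93% and 11.0% overlapped 1 of the 215 gaps of queen-less worker 2. These overlaps are a description, with no test, and do not show that breaks recur at set places.

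Longer regions were more fully covered and less broken. In the 174 regions below 30000 bases the covered share was 86.4% and 79.0% in queens 1 and 2, 84.3% and 97.2% in queen-less workers 1 and 2, and 82.6% and 68.8% in queen-right workers 1 and 2. In the 43 regions of at least 50000 bases it was 93.7% and 89.9% in the queens, 91.8% and 99.2% in the queen-less workers, and 89.9% and 79.9% in the queen-right workers. The longest class was above the shortest in each of the 6 samples. Peaks per 10 kb in the same classes showed the reverse, for example 3.09 below 30000 bases and 2.18 at 50000 bases or more in queen-right worker 2. The regions were merged from and measured in the same 6 lists, so the samples are no independent check. These contrasts by length are a description, with no test.

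A list that helped to make a region also helped to lengthen it, so the regions were found again from 5 lists and measured in the list left out. The left-out list covered 89.5% and 83.4% of the very long regions in queens 1 and 2, 87.1% and 98.3% in queen-less workers 1 and 2, and 84.9% and 73.5% in queen-right workers 1 and 2. It covered 77.4% and 68.1% of the mid-length regions found in the same way in the queens, 73.6% and 93.0% in the queen-less workers, and 75.6% and 59.5% in the queen-right workers. The very long regions were covered more in 6 of 6 left-out samples, by 11.6 ± 3.70 percentage points (SD, n = 6), with an exact two-sided sign-flip permutation p of 0.03125, the smallest that 6 samples allow. The 6 sets of regions share lists and are not independent, so this p cannot be read as a strength of evidence. Cover was also lower near the edges of the very long regions than further inside, and shorter regions lie closer to their edges. The part of this in the difference was not tested. None of the very long regions found from 5 lists lacked a peak in the sixth.

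The longest region was NW_003378093.1:1010211-1193620, with 183410 bases. It was covered by 99.2% and 98.7% in queens 1 and 2, by 98.5% and 100% in queen-less workers 1 and 2, and by 99.0% and 94.2% in queen-right workers 1 and 2. It consisted of 3 and 4 peaks in the queens, 5 and 1 in the queen-less workers, and 4 and 15 in the queen-right workers. All samples thus had it almost whole, and 93.3% of its bases lay under all 6 lists. One break, at NW_003378093.1:1061888-1062656, was present in 4 samples (queen 1, queen-less worker 1 and both queen-right workers), and another, at NW_003378093.1:1167135-1167843, in 3 (queen-less worker 1 and both queen-right workers).

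The next longest regions were similar in cover. NW_003378111.1:771243-901208 (129966 bases) and NW_003378128.1:31002-158673 (127672 bases) were covered to at least 96% in every sample but queen-right worker 2, in which the shares were 82.3% and 90.5%. NW_003378085.1:1206365-1311911 and NW_003378085.1:1316979-1421924 were neighbours of 105547 and 104946 bases, with 94.2% and 79.8% of their bases under all 6 lists. By contrast NW_003378058.1:515284-617116, with 101833 bases, held 16 and 24 peaks in the queens, 22 and 3 in the queen-less workers, and 18 and 37 in the queen-right workers. The 37 peaks are the largest number in any sample, and only 52.0% of that region lay under all 6 lists.

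Of the 10 longest, NW_003377962.1:1575072-1671432, NW_003378085.1:1316979-1421924 and NW_003378128.1:31002-158673 had a lower cover in both queen-right workers than in any other sample. The first was covered by 96.9% and 92.5% in queens 1 and 2, 96.2% and 99.3% in queen-less workers 1 and 2, and 70.8% and 76.7% in queen-right workers 1 and 2. The other 2 regions differed less. In NW_003378085.1:1316979-1421924, queen-right worker 1 had 88.4% and queen 2 had 93.6%. In NW_003378128.1:31002-158673 these samples were almost level, at 97.1% and 97.3%. No matching count is given for the very long regions outside the 10 longest. The remaining 3 of the 10 were NW_003378177.1:9228-119148, NW_003378111.1:114324-222690 and NW_003378059.1:433698-521510, in which no sample was below 80.9%. The regions that were 1 peak in every sample were short members, NW_003377962.1:63306-83560 with 20255 bases and NW_003378152.1:331964-352435 with 20472 bases, and at least 98.1% of each was covered in every sample.

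**Figure D3:**
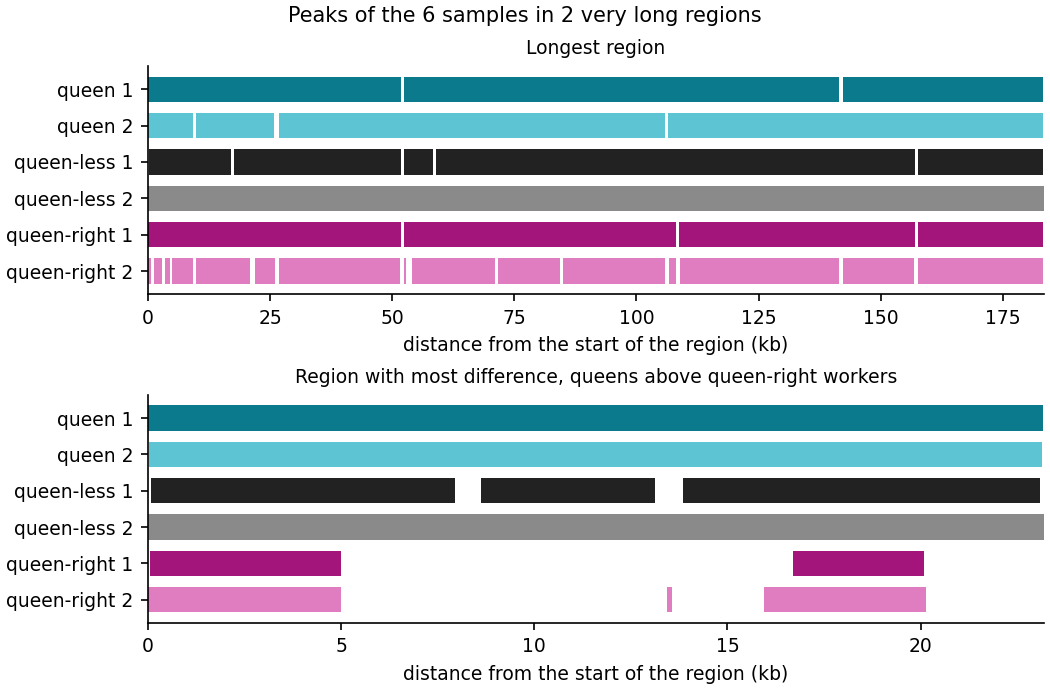
Peaks of the 6 samples as bars along 2 very long regions (horizontal axis, kb from the start of the region), 1 row per sample. In the longest region the bars have few and narrow breaks, most of them in queen-right worker 2. In the region with the largest difference between queens and queen-right workers the bars of both queen-right workers stop near 5 kb and resume in a shorter peak that ends near 20 kb, with 1 small peak between in queen-right worker 2.

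Region by region, the ovary types were compared by asking whether both samples of one type were covered more than both samples of another. Both queen-less workers were above both queen-right workers in 149 of 308 very long regions, or 48.4%, against a background of 27.9% in all 24847 regions called in all 6 samples and 39.6% in the mid-length regions. Both queen-less workers were below both queen-right workers in 0 regions, against a background of 5.21%. The direction was the same as in the background. The share was larger than in the mid-length regions, but the median difference between the types was smaller, 11.2 percentage points in the very long and 13.5 in the mid-length regions. The list of queen-less worker 2 also drew many of the very long regions. With it left out, the counts above and below queen-right workers became 84 and 24 of 200. Without queen-less worker 1 the first was 275.

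Both queens were above both queen-right workers in 101 regions, or 32.8%, against a background of 19.8%. They were below them in 17 regions, or 5.52%, against 20.7%. The difference exceeded 10 percentage points in 76 and 8 of these regions. In the mid-length regions the shares above and below were 25.4% and 13.4%, so queens were more often above than below there too. Both queens were above both queen-less workers in 0 regions, against 2.74%, and below them in 103, or 33.4%, against 28.4%. In the mid-length regions this last share was 34.4%, so the very long regions were close to them. Regions are not replicates, and these counts carry no test. Some moved with single libraries. Without queen-less worker 2, queens were above and below queen-less workers in 60 and 57 of 200 regions. They were then above and below queen-right workers in 64 and 11 of the 200, which as shares are close to those of all lists. Without queen-right worker 2, queens were below queen-right workers in 130 of 307 regions.

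The largest queen-less over queen-right difference lay in NW_003378128.1:475180-500709, a region of 25530 bases. It was covered by 72.8% and 76.4% in queens 1 and 2, 77.6% and 93.6% in queen-less workers 1 and 2, and 10.3% and 25.6% in queen-right workers 1 and 2. The largest queen over queen-right difference lay in NW_003378093.1:173509-196699, a region of 23191 bases. It was covered by 99.9% and 99.8% in the queens, 93.1% and 100% in the queen-less workers, and 35.8% and 40.2% in the queen-right workers. In both regions both queen-right samples lay below each of the other 4.

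The opposite was seen in NW_003382500.1:128-45527, the region with the largest difference of queens below queen-right workers. It was covered by 64.0% and 53.2% in queens 1 and 2, 16.8% and 100% in queen-less workers 1 and 2, and 79.7% and 81.9% in queen-right workers 1 and 2. The 2 queen-less samples lay at both extremes. It took up 99.7% of the 45527 bases up to the farthest peak of its scaffold. In NW_003377956.1:135873-165844, with the largest difference of queens below queen-less workers, the shares were 59.2% and 42.9% in the queens, 75.2% and 98.6% in the queen-less workers, and 46.6% and 19.6% in the queen-right workers. The lowest share of any sample was 6.17%, in queen-less worker 1 at NW_003378080.1:138753-169263, where queen-less worker 2 had 97.3%, the queens 50.4% and 64.5%, and the queen-right workers 94.0% and 57.9%. In the first and the last of these regions the 2 queen-less samples differed more than the means of the types.

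Regions that were low in 1 ovary type alone were searched with limits chosen after the values had been seen, under 50% in both samples of the type and at least 70% in the other 4. In queen-right workers 7 regions were found, or 2.27%, against a background of 0.845% and 1.81% in the mid-length regions. For queens the count was 0, against a background of 0.274%, and for queen-less workers it was 0, against 0.0322%. Queen-less worker 2 covered at least 71.3% of every very long region, so no region could be called low in both queen-less workers, whatever queen-less worker 1 had. The share of 2.27% was close to that of the mid-length regions. The 7 of 308 regions became 4 of 200 without queen-less worker 2 and 16 of 286 without queen-right worker 1.

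Beside the 2 regions above with the largest differences over queen-right workers, the 7 were the following. NW_003378096.1:686985-708684 was covered by 89.8% and 84.4% in the queens, 84.9% and 90.4% in the queen-less workers, and 19.8% and 33.9% in the queen-right workers. NW_003378123.1:143939-163974 was covered by 91.9% and 81.6% in the queens, 99.4% and 95.0% in the queen-less workers, and 29.3% and 45.4% in the queen-right workers. These had the lowest queen-right shares of the remaining 5. In NW_003377904.1:432865-464525, NW_003378039.1:1440686-1465229 and NW_003378092.1:1911493-1939386 the queen-right shares were between 32.8% and 49.9% and those of the other samples between 81.9% and 99.5%. The 7 lay on 7 different scaffolds, and none was among the 10 longest.

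Unmarked bases, rather than whole regions, were also counted by ovary type. Stretches unmarked in both queen-right workers and under peaks of the other 4 samples summed to 352.7 kb in 246 regions, and 58 of them were at least 1000 bases long. The longest had 5441 bases, at NW_003378039.1:1486997-1492437. The matching stretches unmarked in both queens and in no other sample summed to 43.0 kb in 164 regions, with 1 of at least 1000 bases. Those unmarked in both queen-less workers alone summed to 0.529 kb. The last value was bounded by the 98.0% cover of queen-less worker 2, and the queen-right value holds the library with the lowest cover. The queen value was bounded as well. Of the bases unmarked in queens 1 and 2, 81.1% and 76.4% were also unmarked in queen-right worker 2 and could not count. The 3 sums can therefore not be ranked by ovary type, and no matching value is given for the mid-length regions.

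Of the bases unmarked in queen-right worker 1, 80.1% were also unmarked in queen-right worker 2, which lacked 26.5% of all bases. Of the bases unmarked in queen 1, 78.0% were unmarked in queen 2, which lacked 16.6%, but 81.1% were unmarked in queen-right worker 2. Of those unmarked in queen-less worker 1, 8.96% were unmarked in queen-less worker 2, which lacked 1.96%. Missing bases were shared across ovary types as well as within them.

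Within the regions, pairs of lists were compared by the Jaccard index, which divides the bases that both lists mark by the bases that either marks. The index was 0.884 between the queens, 0.872 between the queen-less workers and 0.801 between the queen-right workers. Between types it averaged 0.867 between a queen and a queen-less worker, 0.814 between a queen and a queen-right worker, and 0.796 between workers of the 2 types. Pairs of 1 type averaged 0.852 and pairs of different types 0.826, a difference of 0.0266. This was the largest of the 15 ways to split the 6 samples into pairs, with an exact one-sided permutation p of 0.0667, the smallest that 15 splits allow. The next split gave 0.0227, and the difference in the mid-length regions was 0.0338. In the very long regions it was 0.0121 without queen 2, 0.0159 without queen-less worker 2 and 0.0585 without queen-right worker 1. The highest index of any pair was between types, 0.897 for queen 1 and queen-less worker 2. Only queen 2 and queen-right worker 2 were most similar to the other sample of their own type. The regions were merged from these same lists, and many were drawn by queen-less worker 2. The p of 0.0667 is therefore not independent of how the regions were chosen.

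The edges of the regions were largely those of 1 library. A peak of queen-less worker 2 set the left edge in 185 regions and the right edge in 182, and both in 110. The median distance between the edge of a region and the outermost peak of a sample was 69.5 and 96 bases in queens 1 and 2, 96.5 and 0 in queen-less workers 1 and 2, and 67 and 151 in queen-right workers 1 and 2. The outermost peak began within 1000 bases of the edge at 96.3% and 93.5% of edges in the queens, 93.8% and 99.2% in the queen-less workers, and 93.3% and 88.8% in the queen-right workers. As most gaps inside the regions were also shorter than 1 kb, these shares are not particular to the edges.

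**Figure D4:**
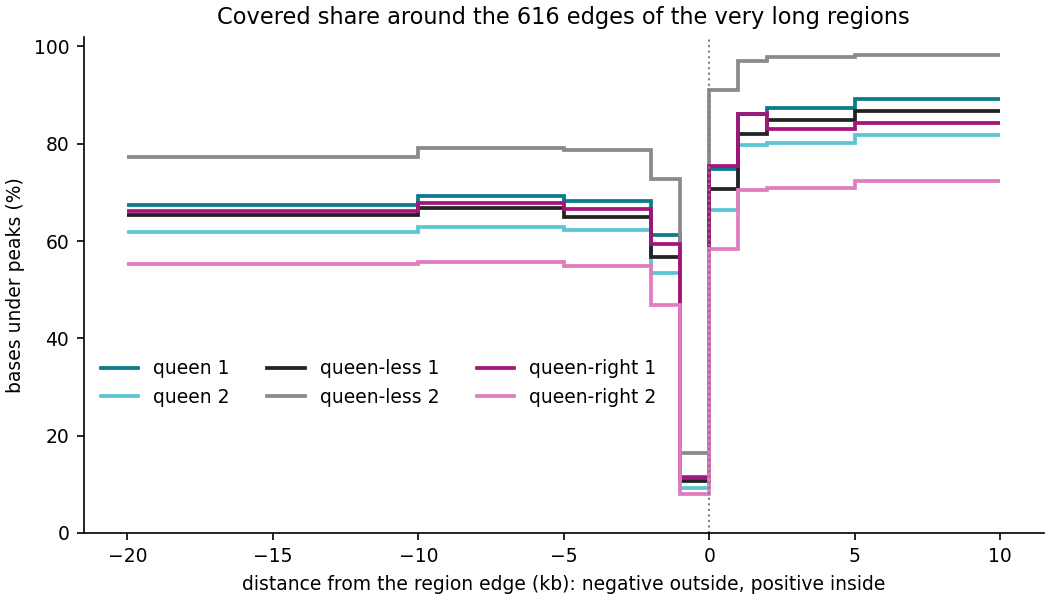
Share of bases under peaks (vertical axis, %) in windows outside (negative distance, kb) and inside (positive distance) the 616 edges of the very long regions, 1 line per sample. In every sample the share drops at the edge, to between 8.07% and 16.3% in the first kb outside, and is above 50% again between 2 and 20 kb outside.

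Cover rose inwards within a few kb, as the plot of cover around the edges shows. The outermost kb inside the edge was covered by 74.9% and 66.5% in queens 1 and 2, 70.7% and 91.1% in queen-less workers 1 and 2, and 75.4% and 58.4% in queen-right workers 1 and 2. Between 5 and 10 kb inside, cover was 89.2% and 81.8% in the queens, 86.8% and 98.2% in the queen-less workers, and 84.4% and 72.3% in the queen-right workers. The drop just outside an edge follows from the merging, which ends a region where no list has a peak.

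The regions did not stand alone in unmarked sequence. Between 10 and 20 kb outside an edge, cover was 67.5% and 61.8% in the queens, 65.3% and 77.2% in the queen-less workers, and 66.2% and 55.2% in the queen-right workers, in each sample well above its share of the whole span. The next merged region of any kind lay at a median distance of 788 bases, against 826 bases for the mid-length regions. Another region lay within 1000 bases on 68.7% of the sides of very long regions and on 63.4% of those of mid-length regions. The flanks, with any neighbouring very long regions that lie in them, were thus more marked than the scaffolds as a whole. At most 10000 bases separated 69 pairs of neighbouring very long regions, so the flank values in part measure such regions again. No flank cover is given here for the mid-length regions.

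The peak score was read only as a rank within its own list, as scores are not comparable between lists. The median peak inside the very long regions lay at the 72.1 and 67.6 percentile of its list in queens 1 and 2, at 64.7 and 84.9 in queen-less workers 1 and 2, and at 59.6 and 47.9 in queen-right workers 1 and 2. In the mid-length regions these percentiles were 63.6 and 60.7 in the queens, 60.4 and 75.3 in the queen-less workers, and 59.6 and 51.8 in the queen-right workers. Peaks of the very long regions ranked above those of the mid-length regions in the 4 lists of queens and queen-less workers, level with them in queen-right worker 1 and below them in queen-right worker 2.

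The very long regions lay on 66 of the 1834 scaffolds in the lists, and those 66 held 44.0% of the span. Of the 64 scaffolds with a span of at least 1 Mb, 40 held at least 1 region, and 24 held none. A single region was found on 18 scaffolds. At the other end, 9 scaffolds with at least 10 regions each held 130 regions, or 42.2%, on 9.11% of the span. These scaffolds were picked for their many regions, so a share of regions above their share of the span was built into the pick. No expected spread was computed, and unevenness was not tested.

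**Figure D5:**
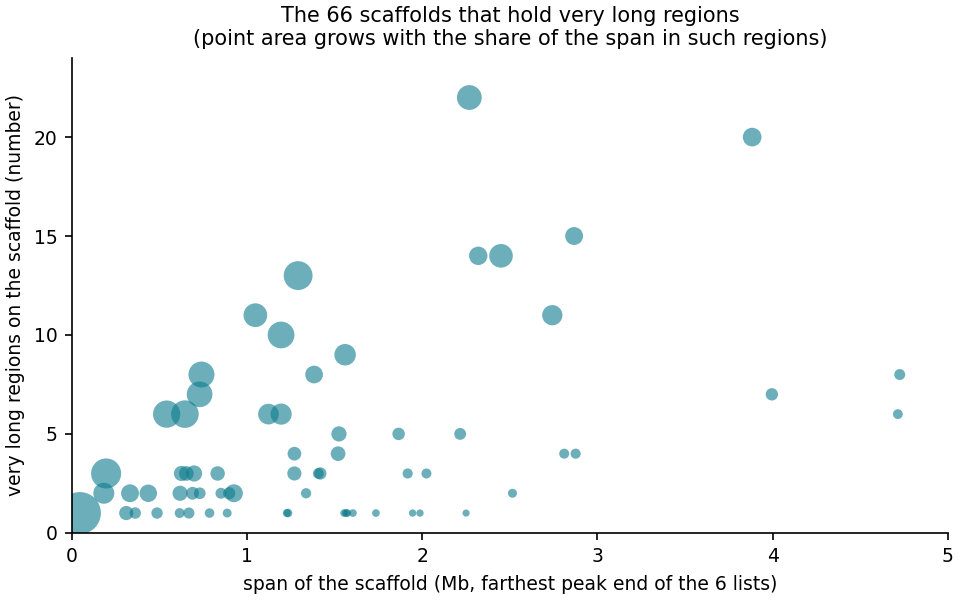
Number of very long regions (vertical axis) against the span of the scaffold (horizontal axis, Mb) for the 66 scaffolds that hold any, with the area of a point growing with the share of the span in such regions. NW_003377962.1 and NW_003378123.1 hold most, with 22 and 20 regions, and NW_003378111.1 has 45.9% of its span in 13 regions.

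The largest number was 22 regions on NW_003377962.1, which took up 33.4% of a span of 2.27 Mb. NW_003378123.1 held 20 regions in 18.1% of 3.88 Mb, NW_003378092.1 held 15, and NW_003378093.1 and NW_003378179.1 held 14 each. The share was highest among these on NW_003378111.1, where 13 regions took up 45.9% of 1.29 Mb. The plot of regions by scaffold shows that the number did not follow the span alone.

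Neighbouring very long regions were often close. Of 242 gaps between neighbours on a scaffold, the median was 32861.5 bases, the shortest 583 and the longest 1649202. At most 10000 bases separated 69 pairs and at most 50000 bases 136 pairs, or 56.2%. Joined at 50000 bases, 206 regions fell into 70 runs of at least 2, of which 33 had at least 3, and 102 regions were alone. The largest run had 8 regions over NW_003378179.1:745496-1050068, of which 80.1% was in the regions. A run of 7 on NW_003378093.1:1431544-1782189 had 92.2% of its extent in the regions and lay on the scaffold that also holds the longest region.

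Few of the regions reached the outermost peaks of a scaffold. The first peak of a scaffold lay in 2 regions and the last peak in 1, and 8 regions were within 20000 bases of the first or last peak. The median distance to the nearer of these was 376383 bases.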

How the data were processed

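Per the submitters' processing notes, Bowtie 1.0, SAMtools 1.5, MACS2 and bedtools were used; their order and settings and the genome build are not given in the sources used here. The study's methods state a use of MACS2 for fold enrichment over input, and the use of the 3 inputs in the peak calls is not given. The authors deposited 1 list of broad peaks per ChIP sample. A peak is given by scaffold and by first and last base, with a score, and its name carries a broad threshold of 0.1 and an extension of 147. The deposited score has no stated unit, depends on depth and was ranked only within a list. Without read counts, no counting error could be given. Replicate numbers of the queens differ between the names of the deposited lists and the labels, and the labels were followed. The inputs were not analysed here.

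Positions were counted from 1. The covered share is the percentage of the bases of a region under peaks of a sample, and the peak count is the number of its peaks in the region. Samples were compared between 2 types by exact permutation of 1 value per sample, adjusted by Benjamini-Hochberg over 3 comparisons. These p-values measure only the spread between 2 biological duplicates and cannot fall below 0.333 for 2 against 2 or 0.0667 for 15 splits. Named were the 10 longest regions, the largest differences between types in each direction, the lowest share, the most peaks, the regions of 1 peak throughout, those nearest the length minimum and the scaffolds with most regions. Alternatives were a score of at least 20, equal covered bases, joining of peaks within 1 kb, a minimum of 30000 bases, at least 50% cover in every sample, leaving out each sample, and a replicate block. The members and lists were chosen with earlier results of these data known. The counting was tested on simulated data. Of the 40 chromosome names in the gene table, which is of Amel_HAv3.1, 0 matched a scaffold. Python 3.11.15, NumPy 2.4.6, pandas 2.3.3, SciPy 1.17.1 and matplotlib 3.10.9 were used.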

Additional observations from a re-analysis of the deposited data

How the results depend on the processing

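Of 185 alternative values of 16 results, 33 moved by at least the SD between replicates (0.0445 for the similarity, 6.98 points for cover, 0.665 peaks per 10 kb) or, for counts, by over 1.5 times. Counts were not divided by the number of regions of a setting, so a count can move with that number alone. The other 152 stayed within these limits, which are wide with 2 samples a type and do not make a value stable. Joining peaks within 1 kb gave 810 very long regions and a minimum of 30000 bases gave 134. Out of these 810 and 134 regions, queen-less workers were above queen-right workers in 313 and 66. Queens were above queen-right workers in 211 and 46 and below them in 104 and 6. Queens were below queen-less workers in 239 and 42. At the minimum of 30000 bases these counts fell roughly in step with the number of regions, from 308 to 134. Queen-less workers were below queen-right workers in 6 regions with joining and in 1 with equal covered bases, and queens above queen-less workers in 5 and 1. With equal covered bases (48.8 Mb per list), queen-less workers were 14.5 points and queens 8.41 points above queen-right workers, and the queen samples then did not overlap those of queen-right workers (exact permutation p of 0.333). With joining, the queen-less and queen-right samples came to overlap in cover (11.0 points, exact permutation p of 0.667), and with joining, equal covered bases or at least 50% cover they came to overlap in peaks per 10 kb (-0.529, -1.002 and -1.04, exact permutation p of 0.667 each). Leaving out each sample in turn gave 200 regions (without queen-less worker 2) to 307. The queen-less minus queen-right difference in cover was 6.16 points without queen-less worker 2 and 19.1 without queen-right worker 1, and the share of bases under all lists was 65.5% to 71.6%. Queen-less workers were above queen-right workers in 84 (without queen-less worker 2) to 275 regions (without queen-less worker 1), with 257 without queen-right worker 1, and below them in 0 to 24 (without queen-less worker 2), with 21 without queen-right worker 2. Queens were above queen-right workers in 64 of 200 (without queen-less worker 2) to 234 of 286 (without queen-right worker 1), with 168 without queen 2. Queens were below queen-right workers in 11 of 200 (without queen-less worker 2) to 130 of 307 (without queen-right worker 2), with 53 without queen 1. As shares, 64 and 11 of 200 are close to the 101 and 17 of 308 with all lists. Queens were above queen-less workers in 0 to 60 (without queen-less worker 2), with 6 without queen 2, and below them in 57 (without queen-less worker 2) to 289 (without queen-less worker 1), with 214 without queen 1. Without queen-right worker 2, the queen minus queen-right difference in peaks per 10 kb turned to 0.103. The number of regions low in queen-right workers alone, an alternative chosen after seeing the data, was 10 at a score of 20, 7 at equal bases, 15 with joining, 1 at 30000 bases, 0 at 50% cover by construction, and 4 (without queen-less worker 2) to 16 (without queen-right worker 1) with a sample left out; without queen-less worker 2, 1 region was low in the queen-less workers. The replicate block cannot change a difference of means in this balanced design (13.2 points again) and gave 0.0241 for the similarity. Same-numbered samples deviated together in 1 of the 3 pairs of types, so the numbers were not taken to pair the samples: the correlations of their deviations over the 308 regions were 0.384 for queens and queen-right workers, -0.0493 for queens and queen-less workers, and -0.202 between the worker types. The held-out difference was run in the 6 settings on score, equal bases, joining, length, 50% cover and mean over regions. It kept its direction in each, between 6.70 and 14.4 points. The sets of regions share lists in each setting, so the exact permutation p of 0.03125 found in each adds no evidence.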
